A study of Danio rerio with 8 samples.

Results

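The 58 genes described here encode mostly enzymes that make, desaturate, elongate, activate and oxidise fatty acids, together with 4 of their transcriptional regulators. The set also holds 3 genes of triglyceride synthesis. Being taken by symbol, it includes acadsb of isoleucine breakdown, which is counted here with mitochondrial oxidation. They were taken by symbol from a table of 31953 zebrafish (Danio rerio) genes: fasn, cpt2 and every gene whose symbol began, in lower case, with acly, acaca, acacb, scd, fads2, elovl, acsl, cpt1, acad, acox, hadh, ehhadh, decr, echs1, eci1, eci2, ppara, ppargc1 or dgat. Symbols in capitals, ACSL6 and ACADSB (2 of 2), were not matched, nor were related genes listed under other names. The rule uses symbols and no measured value, although the set was proposed with earlier results of these data known. All 58 passed the filter on low counts that 20562 genes passed. RNA was taken from whole embryos after 72 h without addition (control, 3 libraries), with raised glucose (high glucose, 3 libraries) or with raised salt (high salt, 2 libraries). Strain, genotype, the embryos' age at the start, the concentrations and the number of embryos per library are not stated in the labels.

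Fatty acids are built in the cytosol from acetyl-CoA, which ATP citrate lyase (acly) releases from citrate, acetyl-CoA carboxylase (acaca, acacb) turns into malonyl-CoA, and fatty acid synthase (fasn) joins into palmitate. Desaturases (scd, fads2) and elongases (elovl) then modify the chain at the endoplasmic reticulum. For oxidation, acyl-CoA synthetases (acsl) activate the acid, carnitine palmitoyltransferases (cpt1, cpt2) carry it into mitochondria, and dehydrogenases, hydratases and thiolases shorten it, while peroxisomes handle very long and branched chains. Malonyl-CoA inhibits the carnitine step, and PPAR alpha with the coactivators PGC-1 alpha and beta (ppargc1a, ppargc1b) raises the transcription of oxidation genes in mammals. The early zebrafish embryo draws its lipid from the yolk.

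Libraries are named by group and by the suffix of their column (1m, 2f or 2m), whose meaning was not stated. They held 14650129 to 17317519 counts, and 3 counts corresponded to 0.171 to 0.226 CPM (counts relative to the library total, scaled by the TMM method). Control 1m stood apart from the other controls (r of log2 CPM 0.923 and 0.930, against 0.974 between those), and the 2 salt libraries differed from each other (r = 0.936), while glucose pairs had r between 0.956 and 0.978. Control 1m was lowest in the summed level of 15 skeletal muscle markers (9939 CPM, against 24020 and 24130 CPM in the other controls, 20590 to 36640 CPM in glucose and 14110 and 20650 CPM in salt), and none of these markers passed the test against control in either group. Summed liver markers lay between 3669 and 5372 CPM and yolk syncytial layer markers between 7238 and 11580 CPM over the 8 libraries, with no marker called, and 10 neuron markers, none of them called, between 317 CPM (control 1m) and 925 CPM (glucose 2m). Of the liver list fabp10a and ttr were at or near 0 in every library (at most 0.251 and 0.342 CPM), as were the photoreceptor genes rho and opn1sw1 (at most 0.122 and 0.125 CPM) and, of the enterocyte list, cdx1b and chia.2 (at most 0.543 and 0.981 CPM). Of 10 enterocyte markers tested, anpepb rose in salt (10.53 to 13.1 CPM in controls, 63.9 and 224 CPM in salt), and of 8 epidermis markers cyt1 fell (from between 1438 and 1767 CPM to 760 and 678 CPM). In glucose no tested gene passed against control, so the absence of marker calls there does not show equal cell type composition. The fitted change in glucose was above 0 for 15 of 15 skeletal muscle, 10 of 10 neuron and 11 of 12 liver markers. For yolk syncytial layer markers it was above 0 for 7 of 8, and for retina and lens 9 of 10. Such changes were fewer for enterocyte (6 of 10), heart muscle (5 of 8) and epidermis markers (2 of 8), against 50% of all tested genes. The part of these cell type markers in the results below was not tested.

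In these embryos the highest levels per gene length belonged to mitochondrial oxidation. Averaged over the 8 libraries, acadvl (very long chain acyl-CoA dehydrogenase) stood at 60.5 CPM per kb, hadhb (beta subunit of the trifunctional protein) at 58.4, echs1 (short chain enoyl-CoA hydratase) at 57.8, acadm (medium chain acyl-CoA dehydrogenase) at 52.0 and hadh (hydroxyacyl-CoA dehydrogenase) at 50.7 CPM per kb. At the other end were dgat1a (0.444), aclyb (0.504), acox3 (1.18), fads2 (1.39) and elovl4b (1.41 CPM per kb), so that the set spanned a 136-fold range around a median of 9.40 CPM per kb. The span of acadvl overlaps zgc:194312 (16.3 CPM on average) by 1355 bases on the opposite strand. That of hadhb, listed as a processed transcript, overlaps hadhaa by 37054 bases. Strand use in the counting is not stated, so the levels of acadvl and hadhb carry that uncertainty. By role, the median was 28.8 CPM per kb for the 16 mitochondrial genes, 11.9 for the 5 carnitine genes, 8.65 for the 10 elongases, 6.68 for the 5 genes of de novo synthesis, 3.58 for the 5 peroxisomal genes and 1.48 for the 3 desaturases. Among the 4 carnitine palmitoyltransferase-1 genes, cpt1ab (24.3) and cpt1cb (20.8) were above cpt1aa (11.9) and the muscle-type gene cpt1b (2.97 CPM per kb). Between the 3 controls the coefficient of variation of a gene was 23.8% at the median, from 4.1% (acads) to 68.6% (fads2), and it exceeded 30% for 20 genes.

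The first comparison, of high salt with control, addressed how these transcripts stand under raised salt. Higher in salt were 2 of the 5 genes of de novo synthesis, 2 of the 10 elongase genes and the coactivator gene ppargc1a, and lower were the PPAR alpha gene pparaa and the oxidation gene eci2. In edgeR's quasi-likelihood test, with p-values adjusted over all 20562 genes after Benjamini and Hochberg, 5 of the 58 rose (fasn, aclya, elovl7b, elovl1a and ppargc1a), 2 fell (pparaa and eci2) and 51 did not pass. The share called was 12.1%, against 5.35% of all tested genes (rises 8.62% against 2.94%, falls 3.45% against 2.41%). An unadjusted p below 0.05 was reached by 13 of the 58 genes, 22.4% against 25.9% of all tested genes. The median log2 fold change of the 58 was 0.08 and that of all genes -0.04.

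**Figure D1:**
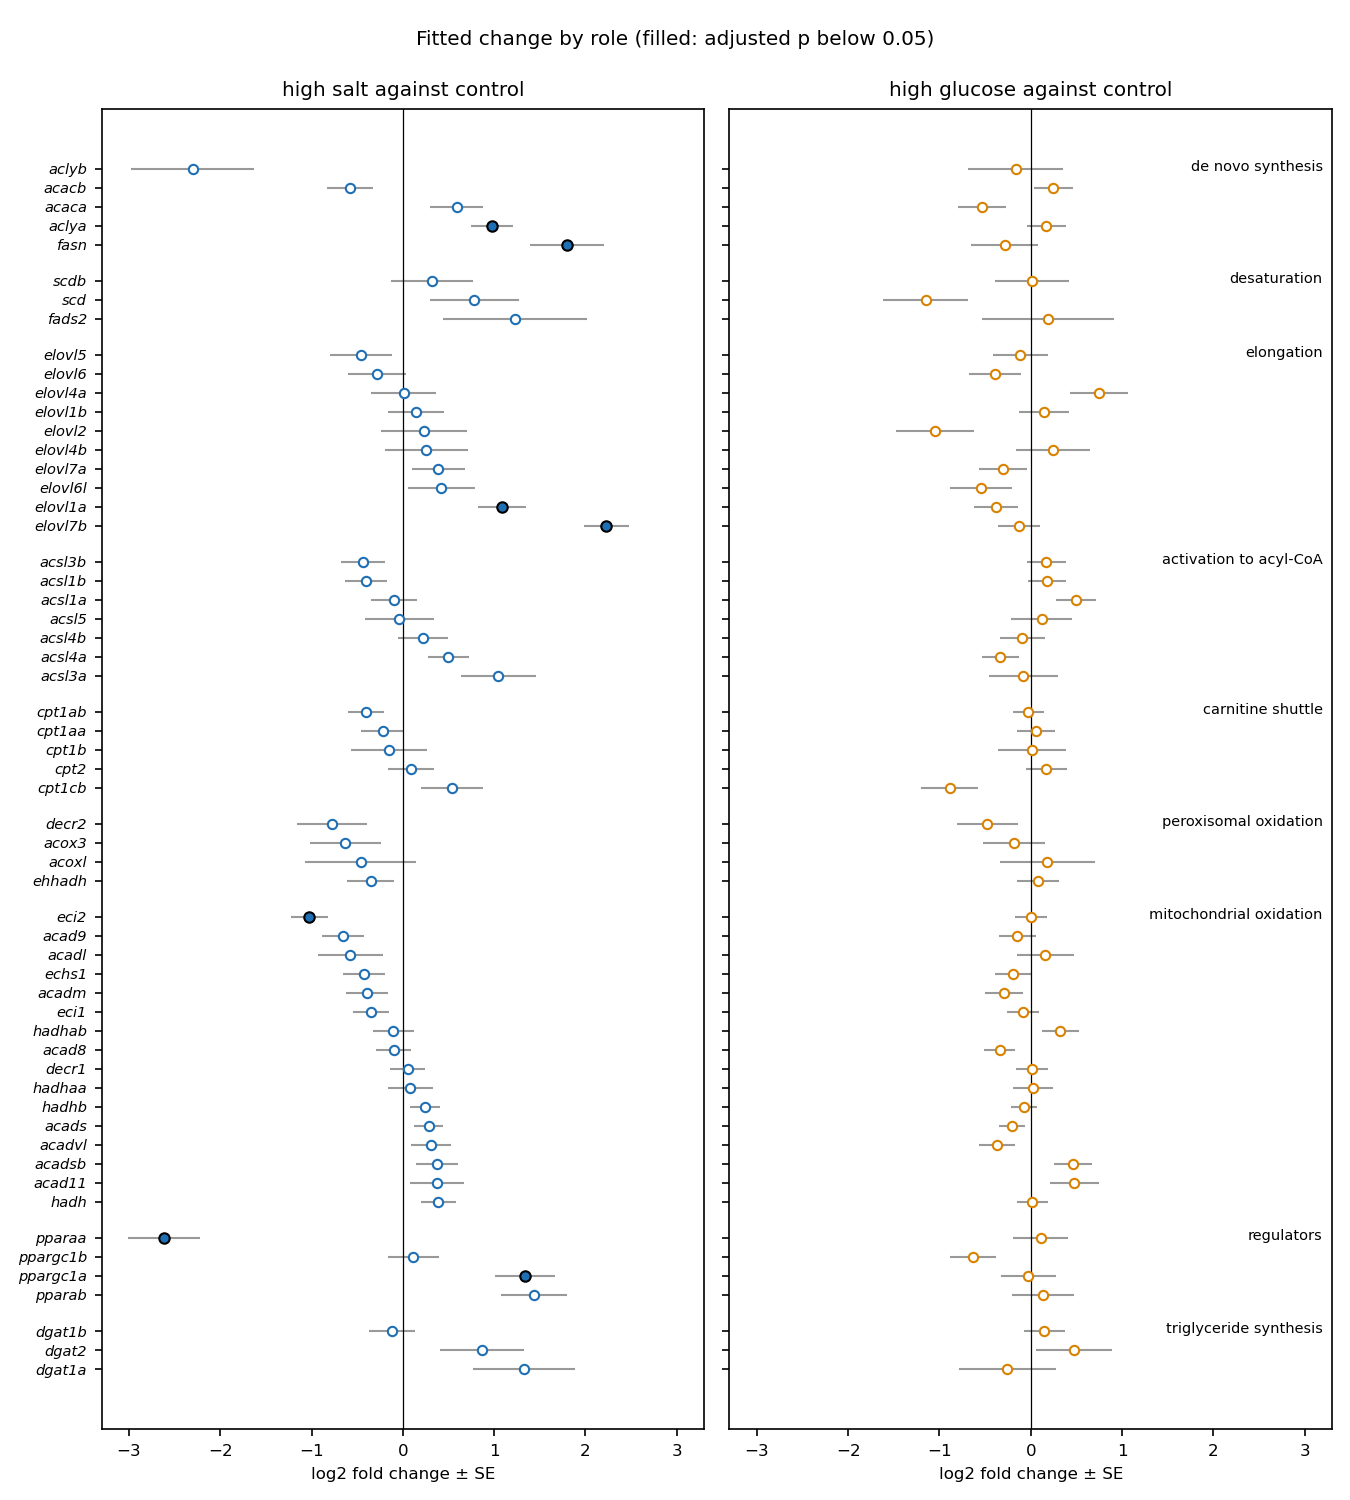
Fitted log2 fold change (points) with its standard error (bars) for 57 of the 58 genes, ordered by role, for high salt (left) and high glucose (right) against control. Filled points passed edgeR's quasi-likelihood test at an adjusted p below 0.05: in salt 5 lie to the right of 0 and 2 to the left, and in glucose there is none.

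The calls for salt depended on the libraries. Only elovl7b and pparaa remained called of these 7 when control 2f, control 2m, glucose 1m, glucose 2f or glucose 2m was left out (3.45%, against 0.722% to 2.3% of all genes), and only elovl7b without salt 2m (1.72% against 0.234%). Without control 1m 7 were called, 5 of them the same (12.1% against 5.98%), and without salt 1m 9 were called, 6 of them the same (15.5% against 11%). With both control 1m and salt 2m left out, 3 were called: elovl7b, elovl1a and pparaa (5.17% against 1.66%). Scaling by library size alone called 2 rises and 2 falls among the 58 (400 rises and 504 falls over all genes, against 605 and 496 with TMM). With the column suffix as a block, 9 were called, the 7 above and the rises of pparab and dgat2. That is 15.5% against 12.4% of all genes, a smaller contrast than the 12.1% against 5.35% without the block, and DESeq2 likewise called 9 (15.5% against 12.6%).

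In de novo synthesis, the fatty acid synthase gene fasn (chromosome 12, 33294765 to 33349529) was at 24.1, 16.4 and 18.0 CPM in the controls (1m, 2f and 2m) and at 32.7 and 103 CPM in the salt libraries (1m and 2m). Both salt libraries lay above every control, and salt 2m lay well above salt 1m. The fitted log2 change was 1.80 ± 0.40 (SE, n = 2 and 3, adjusted p = 0.038 by edgeR). It was 0.75 without salt 2m (adjusted p = 0.31), and the difference between libraries of the same suffix was 0.44 for 1m and 2.52 for 2m. In whole embryos a change in the number of cells of a type and a change in the RNA per cell cannot be told apart, for this gene and all others.

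The gene of ATP citrate lyase aclya (chromosome 3, 17802050 to 17859576) was at 102.5, 115 and 106 CPM in controls and at 151 and 273 CPM in salt, a log2 change of 0.98 ± 0.23 (adjusted p = 0.042 by edgeR). Again both salt libraries exceeded all controls, and without salt 2m the change was 0.50 (adjusted p = 0.31). The second copy aclyb, at a far lower level, was at 1.17, 3.36 and 3.90 CPM in controls and at 0.815 and 0.302 CPM in salt (12 and 4 counts). Its log2 change of -2.30 ± 0.68 did not pass (adjusted p = 0.075 by edgeR), although the groups did not overlap. Of the carboxylase genes, acaca was at 69.9, 60.6 and 57.7 CPM in controls and at 58.3 and 131 CPM in salt. Only salt 2m lay above the controls, the change of 0.59 ± 0.29 did not pass, and it was -0.10 without salt 2m. The acacb gene, whose mammalian product sits at mitochondria, was at 53.4, 77.8 and 87.4 CPM in controls and at 56.9 and 40.6 CPM in salt (-0.58 ± 0.25, adjusted p = 0.18 by edgeR), and the groups overlapped.

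**Figure D2:**
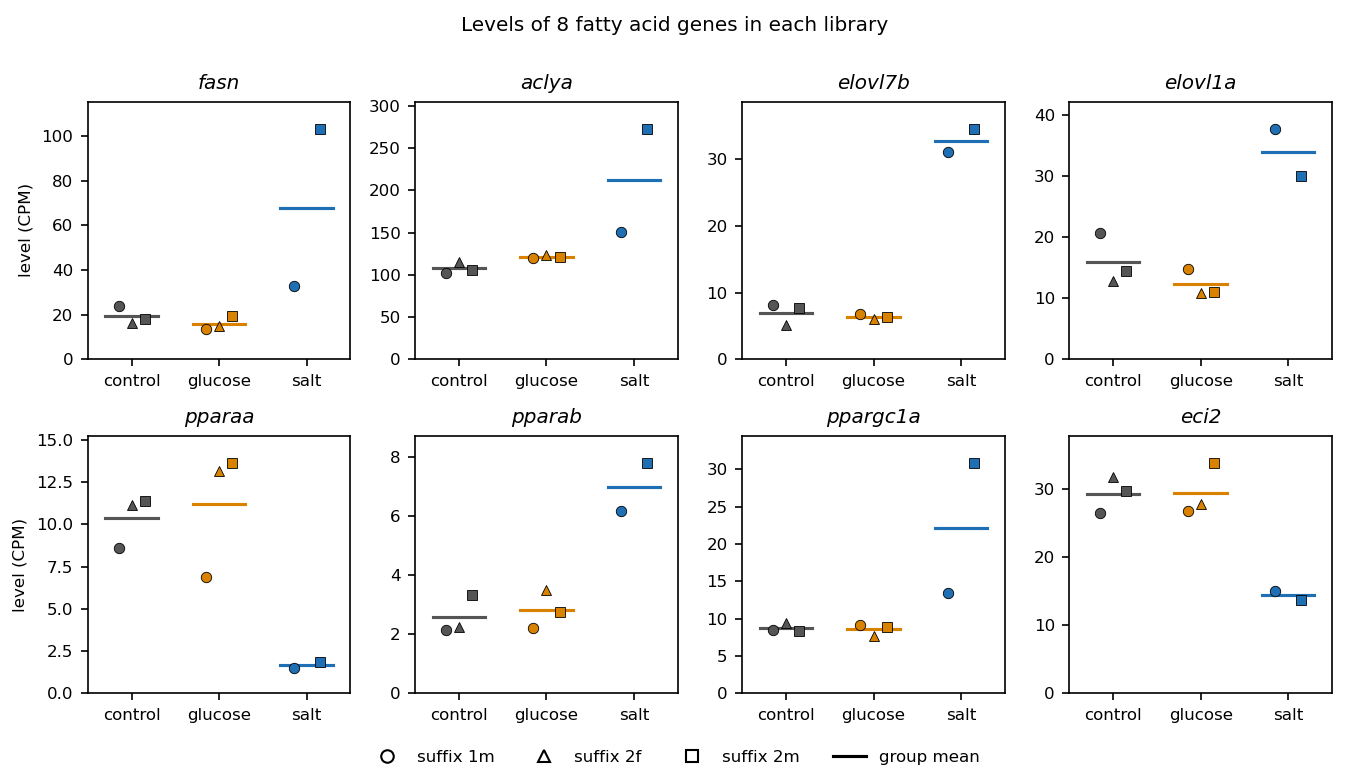
Levels in CPM (vertical axes, from 0) of 8 genes in each library, with symbols for the column suffix and bars for group means. The salt libraries lie above every control for fasn, aclya, elovl7b, elovl1a, pparab and ppargc1a and below every control for pparaa and eci2.

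For desaturation, none of the 3 desaturase genes passed in salt. The stearoyl-CoA desaturase gene scd was at 3.12, 1.89 and 1.98 CPM in controls and at 2.38 and 5.66 CPM in salt (0.78 ± 0.49), and scdb was at 7.45 to 11.9 CPM in controls and at 6.52 and 18.2 CPM in salt. The fads2 gene of polyunsaturated fatty acid synthesis was at 0.407 to 2.81 CPM in controls and at 2.04 and 6.87 CPM in salt. In all 3, salt 2m was the highest of the 8 libraries and salt 1m lay within the range of the controls or below it.

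Among the 10 elongase genes 2 rose and none fell. The larger rise, also the lowest p of all 58 genes, was that of elovl7b, which lies on the unplaced scaffold KN150589.1 (3100 to 5397). It was at 8.13, 5.19 and 7.62 CPM in controls, 6.85, 6.08 and 6.27 CPM in glucose and 31.0 and 34.5 CPM in salt. The salt libraries lay close together and far above the other 6. The log2 change was 2.23 ± 0.25 (adjusted p = 0.0038 by edgeR), between 2.06 and 2.36 in the 15 alternatives tried, and past the threshold in each. Within suffix 1m the difference was 1.93 and within 2m 2.18. Its copy elovl7a was at 34.7 to 56.6 CPM in controls and at 39.3 and 74.1 CPM in salt and did not pass (adjusted p = 0.43 by edgeR).

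The gene elovl1a (chromosome 2, 19514901 to 19566048), whose mammalian counterpart makes very long saturated chains, was at 20.6, 12.9 and 14.5 CPM in controls and at 37.7 and 30.1 CPM in salt. Here salt 1m was the higher of the pair and the groups did not overlap (1.08 ± 0.26, adjusted p = 0.046 by edgeR). The copy elovl1b was at 15.2 to 29.9 CPM in controls and at 21.7 and 31.8 CPM in salt. The other elongase genes showed overlapping groups, among them elovl6 (palmitate to stearate; 21.4 to 28.7 CPM in controls, 15.8 and 25.8 CPM in salt), elovl5 (11.4 to 23.4 and 14.1 and 10.3 CPM) and elovl2 (7.39 to 24.3 and 19.8 and 14.8 CPM), the latter pair acting on polyunsaturated chains. A pair of elongase genes that the symbols in the table did not mark, elovl8a and elovl8b by the gene names table, were at 0.116 to 0.585 and 6.96 to 18.3 CPM in controls, and elovl8b did not pass (adjusted p = 0.89 by edgeR).

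Among the regulators, the PPAR alpha gene pparaa (chromosome 4, 18620563 to 18663699) was at 8.58, 11.2 and 11.4 CPM in controls, 6.91, 13.2 and 13.6 CPM in glucose and 1.49 and 1.89 CPM in salt. In raw counts these were 132, 183 and 196, 121, 210 and 217, and 22 and 25. Both salt libraries lay below all 6 others. The log2 change against control was -2.62 ± 0.39 (adjusted p = 0.012 by edgeR), the largest fall among the 58 genes. The difference was -2.52 within suffix 1m and -2.60 within 2m, and over the 15 alternatives the fitted change lay between -2.89 and -2.44. It missed the threshold in one of them, without salt 2m (adjusted p = 0.099).

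The other PPAR alpha gene, pparab (chromosome 25, 2107545 to 2162876), was at 2.15, 2.26 and 3.32 CPM in controls, 2.23, 3.51 and 2.76 CPM in glucose and 6.18 and 7.77 CPM in salt. The salt libraries lay above the 6 others, opposite to pparaa. The log2 change of 1.43 ± 0.36 missed the threshold (adjusted p = 0.052 by edgeR). Over the 15 alternatives it lay between 1.17 and 1.66, passed in 4 and missed in 11. Among the 4 were the suffix as a block (1.49, edgeR adjusted p = 0.027) and DESeq2. Within a library the ratio of pparaa to pparab per gene length was 3.16, 3.91 and 2.72 in controls, 2.45, 2.96 and 3.90 in glucose and 0.191 and 0.192 in salt. The order of the copies was therefore the reverse in salt, with nearly the same ratio in both libraries.

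The gene of PGC-1 alpha, ppargc1a (chromosome 7, 70128523 to 70219243), was at 8.45, 9.46 and 8.32 CPM in controls and at 13.5 and 30.8 CPM in salt. The controls were close together, both salt libraries were above them and salt 2m was the higher (1.34 ± 0.33, adjusted p = 0.046 by edgeR; 0.63 and adjusted p = 0.35 without salt 2m). The related ppargc1b was at 125, 77.0 and 63.4 CPM in controls and at 80.2 and 111 CPM in salt, with overlapping groups.

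**Figure D3:**
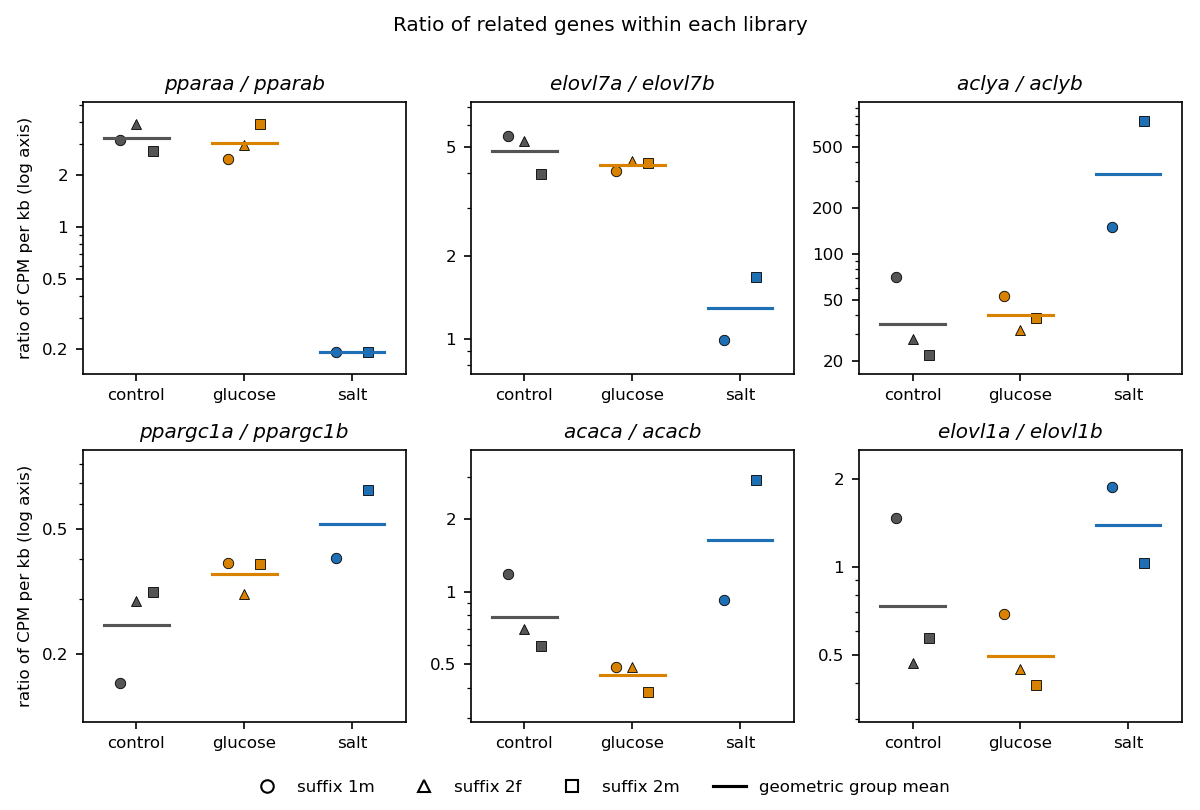
Ratio of 6 pairs of related genes within each library, from CPM per kb on log axes, with symbols for the column suffix and bars for geometric group means. The ratio of pparaa to pparab lies between 2.45 and 3.91 in the 6 control and glucose libraries and at 0.191 and 0.192 in salt, and that of elovl7a to elovl7b between 3.99 and 5.46 there and at 0.992 and 1.68 in salt.

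Ratios were computed for 14 pairs of related genes, which removes the scaling between libraries. In salt against control the groups did not overlap for 7 pairs: lower for pparaa over pparab and elovl7a over elovl7b, and higher for aclya over aclyb, hadhaa over hadhab, dgat1a over dgat1b, ppargc1a over ppargc1b and scd over scdb. The ratio of elovl7a to elovl7b was 5.46, 5.24 and 3.99 in controls and 0.992 and 1.68 in salt. That of aclya to aclyb was 71.1, 27.8 and 22.1 in controls and 151 and 733 in salt, where aclyb had only 12 and 4 counts. For the first 6 of these pairs a 2-sided exact permutation test gave p = 0.1, the smallest that 3 against 2 libraries allow. After adjustment over the 14 pairs this was 0.233, so no ratio could pass. For single genes, salt and control did not overlap for 39.4% of all tested genes, and no such share was computed for ratios. In glucose against control the ratio was higher without overlap for acsl1a over acsl1b, and lower for hadhaa over hadhab and acaca over acacb.

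At the activation step, none of the 7 acyl-CoA synthetase genes of the set passed in salt. Outside the set, ACSL6 and a gene named acsl2 in the gene names table did not pass either (adjusted p = 0.53 and 0.40 by edgeR). The salt libraries lay above all controls for acsl4a alone (89.9 to 113 CPM in controls, 123 and 171 CPM in salt), whose mammalian product prefers arachidonic acid. The gene acsl3a was at 5.86 to 11.3 CPM in controls and at 9.17 and 25.5 CPM in salt, acsl1a at 18.3 to 31.8 and 22.1 and 26.6 CPM, and acsl1b at 116 to 177 and 134 and 102 CPM. For the carnitine step, cpt1ab was at 98.2, 104.5 and 90.1 CPM in controls and at 85.8 and 62.0 CPM in salt (-0.40 ± 0.20, adjusted p = 0.23 by edgeR). It was the one gene of this step whose groups did not overlap. The others were cpt1aa (35.4 to 57.4 CPM in controls, 42.0 and 39.8 CPM in salt), cpt1b (5.79 to 10.7 and 5.71 and 10.4 CPM), cpt2 of the inner membrane (15.5 to 20.3 and 15.1 and 24.3 CPM) and cpt1cb (41.0 to 99.5 and 81.4 and 103 CPM). In the gene names table cpt1cb carries the symbol cpt1a2b.

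In oxidation, of the 16 mitochondrial genes, eci2 fell, none rose, and 8 had a fitted change above 0 and 8 below 0. The eci2 gene (chromosome 24, 2934943 to 2973295) encodes an enoyl-CoA isomerase that shifts the double bonds of unsaturated chains, and its mammalian product is found in peroxisomes as well as mitochondria. It was at 26.4, 31.8 and 29.7 CPM in controls, 26.8, 27.7 and 33.7 CPM in glucose and 15.1 and 13.7 CPM in salt. Both salt libraries lay below the 6 others (-1.02 ± 0.21, adjusted p = 0.028 by edgeR), and within suffixes the difference was -0.81 and -1.11. Without salt 2m the change was -0.95 (adjusted p = 0.20). The gene overlaps tubb6 on the opposite strand, at 5.19 CPM on average, and strand use in the counting is not stated.

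The chain-length series of dehydrogenases did not pass. In salt acadvl was at 234 and 319 CPM (controls 178 to 265 CPM), acadl at 17.3 and 23.0 CPM (controls 19.1 to 42.1 CPM), acadm at 93.5 and 95.6 CPM (controls 98.5 to 163 CPM) and acads at 76.6 and 84.2 CPM (controls 63.0 to 68.2 CPM). Both salt libraries were thus below the controls for acadm and above them for acads, as they were for hadh (77.6 and 106 CPM; controls 64.8 to 76.2 CPM). The trifunctional protein genes hadhaa (52.5 and 60.3 CPM; controls 36.3 to 64.9 CPM) and hadhab (84.0 and 105 CPM; controls 74.3 to 123 CPM) overlapped with control, and hadhb was at 136 and 140 CPM against 105 to 125 CPM. The spans of hadhaa and hadhb overlap by 37054 bases on opposite strands, so reads of one could have been counted for the other. The gene acad9, which also serves respiratory complex I assembly, was at 29.1, 26.9 and 21.3 CPM in controls and at 19.2 and 13.5 CPM in salt (-0.66 ± 0.23, adjusted p = 0.12 by edgeR).

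The peroxisomal genes decr2, acox3, acoxl and ehhadh had a fitted change below 0 in salt, between -0.78 (decr2) and -0.35 (ehhadh), and none passed (lowest adjusted p = 0.23 by edgeR). Over all genes 47.5% had a change above 0. The salt libraries lay below every control for decr2, for acox3 (3.38 to 6.92 CPM in controls, 3.26 and 3.17 CPM in salt) and for ehhadh, the bifunctional enzyme (8.06 to 10.7 and 7.81 and 6.57 CPM). They overlapped with control for acoxl (1.11 to 4.54 CPM in controls, 1.36 and 2.72 CPM in salt). For decr2 the values were 65.5, 27.4 and 26.6 CPM in controls and 25.95 and 20.4 CPM in salt. Control 1m alone stood high there, and without it and salt 2m the change was -0.04.

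For triglyceride synthesis, the acyltransferase gene dgat2, whose product makes triglyceride from diglyceride, was at 13.8, 38.3 and 32.9 CPM in controls and at 29.8 and 73.7 CPM in salt (0.87 ± 0.46, adjusted p = 0.26 by edgeR). Control 1m was the lowest and salt 2m the highest of the 8 libraries, and when the suffix was a block dgat2 passed (1.04, edgeR adjusted p = 0.024). Without control 1m and salt 2m the change was -0.24. The low dgat1a was at 0.780 to 0.989 CPM in controls and at 1.70 and 2.94 CPM in salt (1.33 ± 0.56, adjusted p = 0.17 by edgeR), and dgat1b was at 6.53 to 7.62 and 6.52 and 6.79 CPM.

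Over the 58 genes the salt and control libraries did not overlap for 21 genes, 11 higher (19%, against 18.8% of all tested genes) and 10 lower (17.2%, against 20.6%) in salt. Together that is 36.2%, against 39.4% of all tested genes, a share near the background. Salt 2m held at least 2 times the level of salt 1m for 8 of the 58 genes (acaca, acsl3a, dgat2, fads2, fasn, ppargc1a, scd and scdb). That share was near the background, since 12.7% of all tested genes did so. Salt 1m held at least 2 times the level of salt 2m for aclyb (1.72%, against 11.8% of all tested genes). The 5 genes of de novo synthesis summed to 251, 273 and 273 CPM in controls and 300 and 547 CPM in the salt libraries. The 16 mitochondrial genes summed to 1143, 1085 and 1037 CPM in controls and to 1023 and 1189 CPM in salt.

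**Figure D4:**
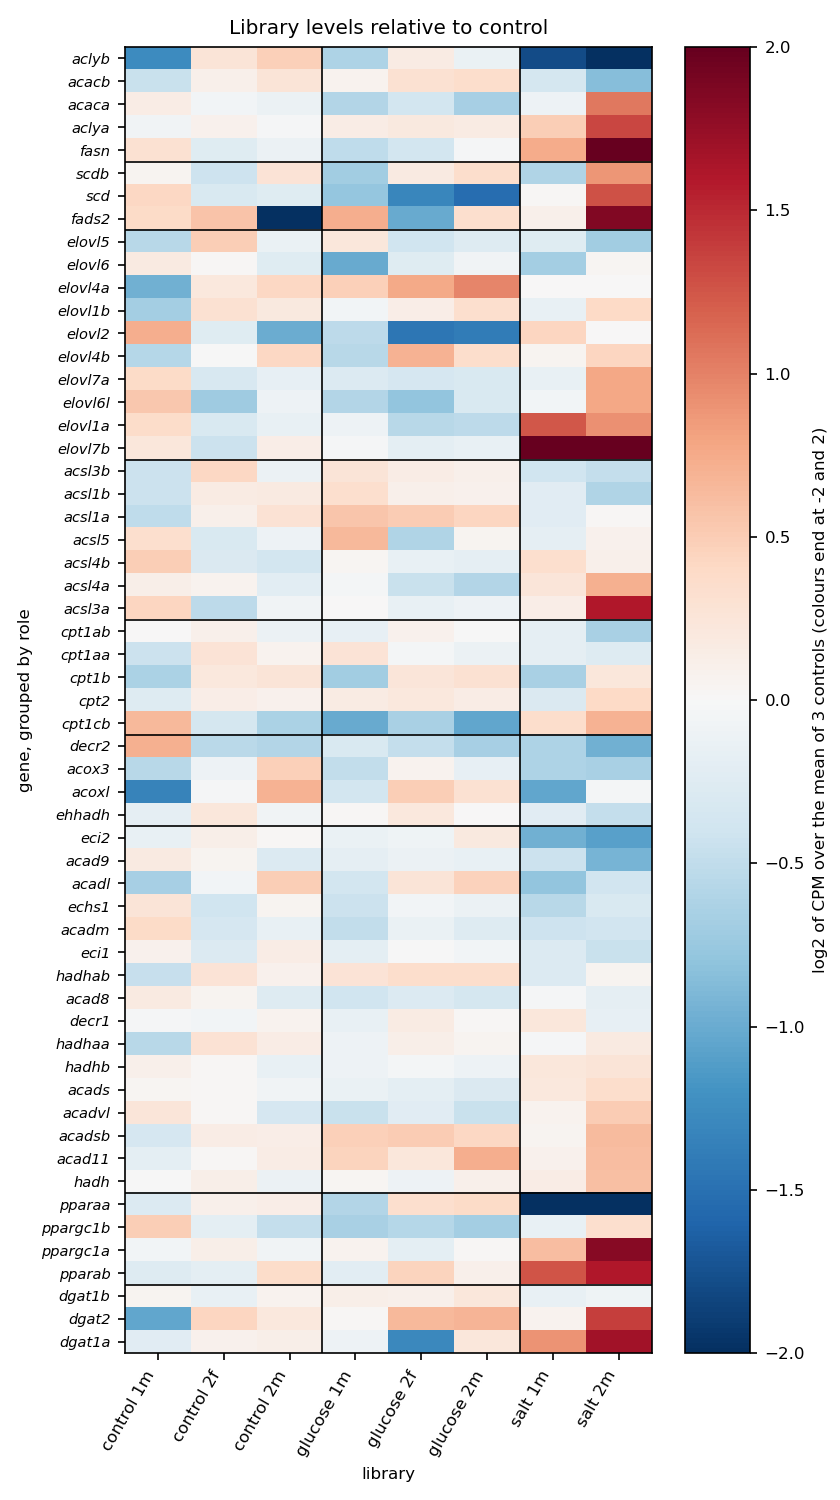
Level of 57 of the 58 genes in each of the 8 libraries as log2 of CPM over the mean of the 3 controls, grouped by role, with colours that end at -2 and 2. Both salt columns are strongly coloured for elovl7b, pparaa, pparab and aclyb, the last from 12 and 4 counts. By contrast, fasn, aclya, ppargc1a and dgat2 are stronger in salt 2m than in salt 1m.

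The second comparison set high glucose against control for the same transcripts. No gene of the 58 passed by edgeR's quasi-likelihood test (lowest adjusted p = 0.76), where 0% of all tested genes did, and none passed by DESeq2 or in any other alternative tried. The fitted change was above 0 for 28 of the 58 genes, against 50% of all tested genes. An unadjusted p below 0.05 was reached by 6 of the 58 genes, 10.3% against 5.97% of all tested genes. These were cpt1cb, ppargc1b, scd and elovl2 on the lower side (6.9% against 4.12%) and elovl4a and acsl1a on the higher side (3.45% against 1.85%). The count was 0 without control 1m or glucose 2m (2.63% and 2.92% of all genes) and 1 without glucose 2f (3.29%). The groups did not overlap for 14 genes, 24.1% against 14.8% of all tested genes, 8 higher (13.8% against 7.13%) and 6 lower (10.3% against 7.67%) in glucose.

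Among the genes of de novo synthesis in glucose, acaca lay below every control, aclya above every control, and fasn, acacb and aclyb overlapped with control. Levels of fasn were 13.8, 15.04 and 19.2 CPM (-0.29 ± 0.37), within or just below the control range, and those of aclya were 120, 124 and 121 CPM, above the 102.5 to 115 CPM of the controls. The gene acaca was at 41.7, 48.7 and 39.7 CPM, below the 57.7 to 69.9 CPM of the controls (-0.53 ± 0.27, adjusted p = 0.76 by edgeR). Levels of acacb were 76.8, 90.3 and 92.9 CPM against 53.4 to 87.4 CPM, and those of aclyb 1.83, 3.13 and 2.57 CPM against 1.17 to 3.90 CPM. The low desaturase gene scd was at 1.37, 0.940 and 0.815 CPM in glucose (24, 15 and 13 counts) against 1.89 to 3.12 CPM in controls, and its log2 change of -1.15 ± 0.46 was the largest among the 58 in this comparison. It was lower within each suffix, by 1.19, 1.01 and 1.28.

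Of the oxidation genes, cpt1cb was at 31.7, 40.4 and 30.9 CPM in glucose and at 99.5, 50.04 and 41.0 CPM in controls (-0.89 ± 0.31). Glucose lay below every control, and control 1m stood far above the other controls. The coactivator gene ppargc1b showed the same order, with 56.6, 59.2 and 55.1 CPM in glucose and 125, 77.0 and 63.4 CPM in controls (-0.63 ± 0.25). Within suffix the differences were -1.65, -0.31 and -0.41 for cpt1cb and -1.14, -0.38 and -0.20 for ppargc1b. The gene elovl2 (-1.05 ± 0.43) was at 10.3, 5.39 and 5.58 CPM and overlapped with the controls, as did elovl6l (-0.55 ± 0.34). Each of these changes had an adjusted p of 0.76 by edgeR.

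On the higher side in glucose were elovl4a (20.2, 24.5 and 28.5 CPM against 7.48, 16.8 and 19.3 CPM, 0.75 ± 0.32), which serves very long polyunsaturated chains in retina and brain, and acsl1a (38.1, 37.2 and 34.9 CPM against 18.3, 28.1 and 31.8 CPM, 0.50 ± 0.22). Further ones were acadsb of isoleucine breakdown (37.3 to 39.4 CPM against 22.0 to 31.0 CPM, 0.47 ± 0.21), acad11 (7.82, 6.71 and 9.52 CPM against 5.01 to 6.40 CPM, 0.48 ± 0.27) and dgat2 (28.7 to 45.4 CPM against 13.8 to 38.3 CPM, 0.47 ± 0.42). None of them passed. The lowest control value was that of control 1m for each of these 5 genes. The summed level of 12 retina and lens markers was 27.8, 141 and 212 CPM in controls and 119, 278 and 487 CPM in glucose, with overlapping groups. Lens genes such as cryba2a (7.80, 33.3 and 56.4 CPM in controls, 32.2, 74.0 and 124 CPM in glucose) made up most of it. The retina genes gnat1, gnat2, pde6c and rbp4l changed by log2 0.58, 0.06, 0.28 and -0.48, none of them called. The 10 neuron markers summed to 316.8, 625.4 and 622.5 CPM in controls and 572.9, 746.1 and 924.9 CPM in glucose. Here too control 1m was lowest and the groups overlapped. All 10 had a fitted change above 0 in glucose (median log2 0.52), none of them called. The part of the retina, lens and neuron markers in the difference of elovl4a was not tested. The gene acad11 overlaps ackr4b on the opposite strand. For ppargc1a glucose values (9.19, 7.65 and 8.90 CPM) overlapped with those of the controls, as did those of both PPAR alpha genes above.

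High glucose was also compared with high salt directly. This comparison uses the same salt libraries as above and is not independent of it. By edgeR's quasi-likelihood test, adjusted as above, 7 of the 58 genes differed (12.1%, against 4.95% of all tested genes), 2 higher (3.45% against 1.9%) and 5 lower (8.62% against 3.05%) in glucose. Lower in glucose were elovl7b (log2 -2.35 ± 0.25, adjusted p = 0.0029), elovl1a (-1.46 ± 0.26, 0.020), fasn (-2.08 ± 0.41, 0.026), cpt1cb (-1.42 ± 0.34, 0.046) and ppargc1a (-1.36 ± 0.33, 0.046). Higher were pparaa (2.73 ± 0.39, 0.010) and eci2 (1.03 ± 0.21, 0.028). For cpt1cb the levels were 31.7, 40.4 and 30.9 CPM in glucose and 81.4 and 103 CPM in salt, and the control range of 41.0 to 99.5 CPM overlapped that of salt.

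Close to the threshold in this comparison were scd (-1.93 ± 0.50, adjusted p = 0.057 by edgeR), acaca (-1.12 ± 0.29, 0.057), acsl4a (-0.83 ± 0.22, 0.063), pparab (-1.30 ± 0.36, 0.067) and aclya (-0.80 ± 0.23, 0.073). By DESeq2 14 of the 58 genes passed (24.1%, against 12% of all genes). Left-out libraries changed the count. Without control 1m 17 were called (29.3%, against 11.5% of all genes), and without salt 1m 13 (22.4% against 9.76%). Without control 2m 6 were called (10.3% against 3.04%), without control 2f 5 (8.62% against 2.74%) and without glucose 1m 3 (5.17% against 0.968%). Without glucose 2f, glucose 2m or salt 2m 1 was called (1.72%, against 0.288%, 0.353% and 0.304%). Glucose and salt libraries did not overlap for 39 of the 58 genes, 67.2% against 44.8% of all tested genes, 17 of them higher (29.3% against 23.6%) and 22 lower (37.9% against 21.2%) in glucose.

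Other genes of lipid metabolism, not all of them specific to fatty acids, came from 4 lists. In salt, 1 of 20 tested genes of lipogenesis support rose and 1 fell (median log2 change 0.05), 1 of 30 genes of the carnitine system and oxidation support fell (-0.16), 3 of 28 genes of lipid uptake, binding and droplets rose and 2 fell (0.08), and 1 of 14 partner and target factors fell (0.00). The median over all genes was -0.04, and 2.94% of all genes rose and 2.41% fell. In glucose none of these genes passed by edgeR's quasi-likelihood test, as none did over all genes.

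The elongation dehydratase gene hacd2 rose in salt (76.3, 59.6 and 54.0 CPM in controls, 111 and 137 CPM in salt, 0.97 ± 0.19, adjusted p = 0.027). The ketoacyl reductase gene of the same cycle, hsd17b12a, did not pass in salt against control (0.86 ± 0.30, adjusted p = 0.11 by edgeR). Its levels were 109, 48.3 and 64.7 CPM in controls and 126.5 and 142 CPM in salt. It was higher in salt than in glucose (54.1, 44.0 and 43.4 CPM, glucose against salt -1.51 ± 0.30, adjusted p = 0.027 by edgeR). The malic enzyme gene me1, a source of NADPH for synthesis, fell (10.6, 34.5 and 23.9 CPM in controls, 4.48 and 2.42 CPM in salt, -2.73 ± 0.54, adjusted p = 0.027). Among genes of the synthesis route, fasn, aclya and hacd2 thus rose in salt and me1 fell. In glucose me1 was at 7.248, 14.04 and 9.899 CPM, overlapped with control and did not pass (-1.15 ± 0.43, adjusted p = 0.76 by edgeR).

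Fatty acid transport genes slc27a2a (67.9 to 85.8 CPM in controls, 177 and 156 CPM in salt, 1.102 ± 0.21, adjusted p = 0.023 by edgeR) and slc27a4 (6.86 to 11.6 CPM, 17.7 and 21.7 CPM, 1.17 ± 0.29, 0.046) rose in salt. The gene angptl4, a lipoprotein lipase inhibitor and PPAR target in mammals, fell from 68.0, 61.5 and 70.4 CPM to 40.8 and 25.3 CPM (-1.01 ± 0.22, edgeR adjusted p = 0.037). The lipid droplet gene pnpla3 fell from 20.1, 13.1 and 11.1 CPM to 3.94 and 1.81 CPM (-2.35 ± 0.41, adjusted p = 0.020). For each of these genes the salt libraries lay outside the range of all controls. Glucose libraries also lay above every control for slc27a2a (134, 97.79 and 92.16 CPM). They lay below every control for pnpla3 (6.678, 6.895 and 7.769 CPM) and angptl4 (54.85, 57.8 and 60.65 CPM), and overlapped with control for slc27a4. None of the 4 passed in glucose.

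Further falls in salt belonged to mitochondrial proteins. The carnitine acetyltransferase gene crata was at 11.5, 21.2 and 22.1 CPM in controls and at 2.58 and 6.34 CPM in salt (-2.04 ± 0.48, adjusted p = 0.042 by edgeR). The gene of the uncoupling protein family member ucp2 was at 161, 136 and 168 CPM in controls and at 79.7 and 30.6 CPM in salt (-1.49 ± 0.34, adjusted p = 0.041). Without salt 2m none of the 8 genes named here from these lists as passing in salt stayed past the threshold (lowest edgeR adjusted p = 0.125, for crata), and each kept its direction. Apart from these mitochondrial proteins, the listed genes hmgcs1 (-1.44 ± 0.33, edgeR adjusted p = 0.043) and mgll (-1.21 ± 0.29, 0.047) were lower in glucose than in salt. For both, glucose overlapped with control and the salt libraries lay above every control and glucose library. Levels of hmgcs1 were 22.63 to 33.2 CPM in controls, 22.99 to 25.28 CPM in glucose and 38.04 and 94.48 CPM in salt. Those of mgll were 43.16 to 76.14, 42.35 to 57.3, and 145.6 and 87.23 CPM. Neither passed in salt against control (edgeR adjusted p = 0.053 and 0.063).

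**Figure D5:**
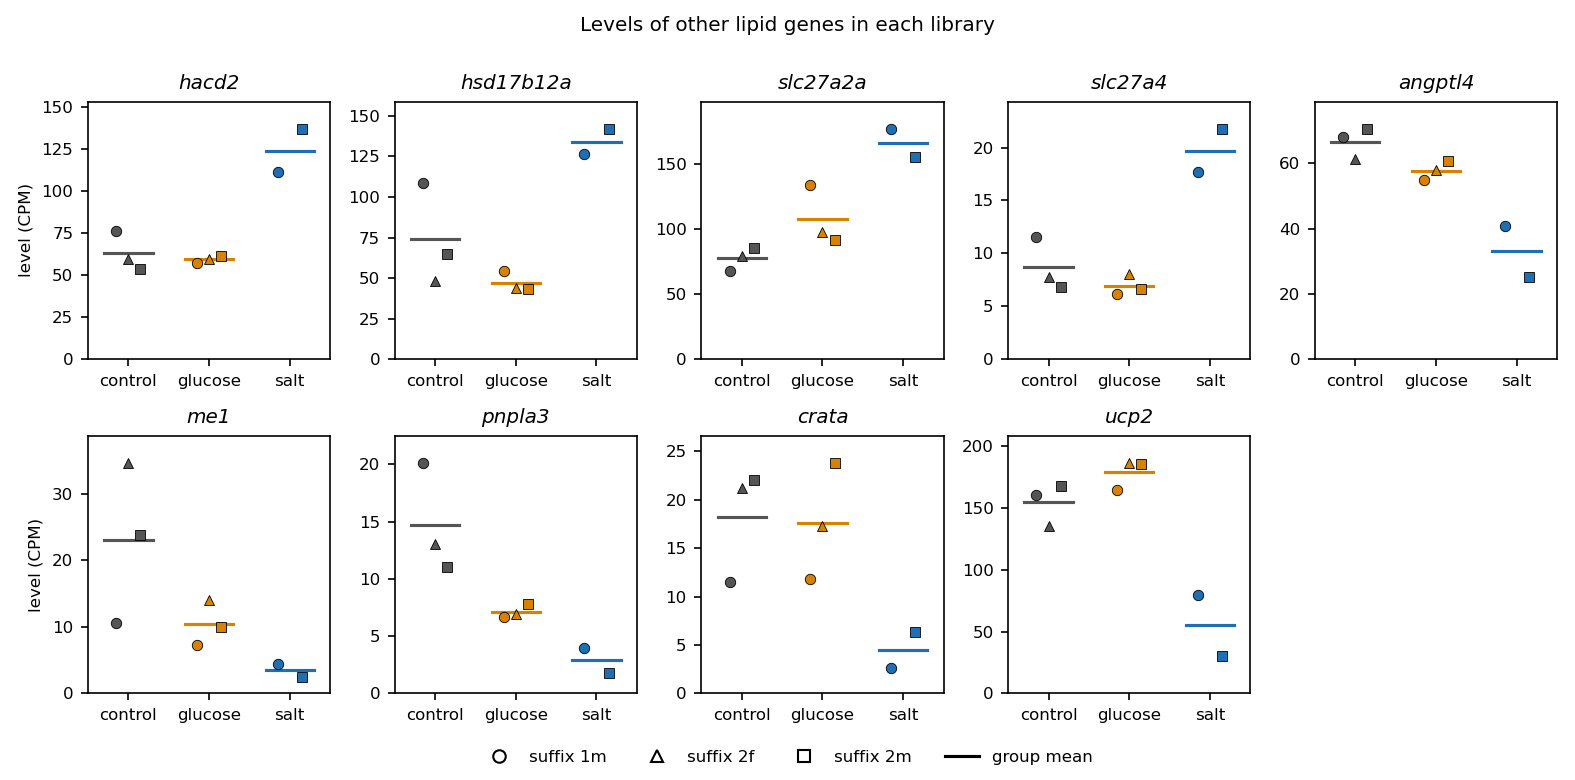
Levels in CPM (vertical axes, from 0) of 9 other genes of fatty acid handling in each library, with symbols for the column suffix and bars for group means. Salt libraries lie above every control for hacd2, hsd17b12a, slc27a2a and slc27a4 and below every control for angptl4, me1, pnpla3, crata and ucp2.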

How the data were processed

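Raw read counts per gene, whole numbers for 31953 genes in 8 libraries, were deposited by the authors. The labels' extraction text describes array hybridisation, but the values are sequencing counts. Among the tools in the submitters' processing notes are edgeR 3.22.5 and DESeq2, featureCounts 1.5.0-p3, StringTie 1.3.3b and HISAT2 2.0.5, with build GRCz11. Their settings, strand use and treatment of shared reads are not stated, so values of near-identical copies are uncertain. Coordinates and gene lengths are the deposited table's, and a table of identifiers held 57 of the 58 genes. Columns were matched to groups by name. No label ties libraries to separate clutches, so p-values cover only the variation among these samples, which may be technical. Replicate pairs differed beyond sampling noise (17.2 to 91.8 times, by chi-square over its degrees of freedom).

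All genes passing filterByExpr (20562) were fitted together after TMM scaling with edgeR 4.0.16 (quasi-likelihood test, R 4.3.3), in 1 fit of 8 libraries with 5 residual degrees of freedom, with Benjamini-Hochberg adjusted p below 0.05 as the threshold. The method was tested on simulated data that held no outlying library and no suffix effect, so that test does not cover these features. Standard errors were derived from each fold change and its F value. CPM per kb is CPM over the table's gene length. DESeq2 1.42.0, other scalings and filters, and left-out libraries were alternatives. Deviations from group means correlated between control and glucose libraries of the same suffix (r = 0.522, 0.158 and 0.507 over 18419 genes), control and salt (0.397 and 0.370) and glucose and salt (0.427 and 0.405). With 2 salt libraries their deviations are equal and opposite, so each salt value recurs with the opposite sign (control 1m with salt 2m -0.397). The values for salt 1m and salt 2m are therefore not separate evidence. Control 2f, however, correlated no less with glucose 2m (0.177) and salt 2m (0.218), of another suffix, than with glucose 2f. Since each same-suffix pair exceeded 0.1, the suffix, which is in the column names and in no label, was also used as a block. Some pairs of another suffix exceeded 0.1 too, such as control 2m with glucose 2f (0.11) and glucose 2f with salt 2m (0.115). The 2f pair gives the block little support. Members, gene lists and tests were chosen with earlier results of these data known. The text names the called members, a set list of entry steps and regulators, the 5 largest fitted changes each way and the 5 highest and 5 lowest levels, gives the rest by role, and adds the called genes of the other lists. Some named results are not reported here.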

Additional observations from a re-analysis of the deposited data

How the results depend on the processing

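The counts of genes called and the fold changes of selected genes were recomputed in 15 alternatives. Levels, ratios of related genes and counts of groups without overlap were not. In salt against control, 7 genes of the set and 1101 of all genes were called; library size alone gave 4 of the set, fitting only the 2 groups compared gave 2 and 72, leaving out control 1m and salt 2m together gave 3 and 352, DESeq2 called 2676 of all genes and the replicate block by column suffix 2550. Leaving out 1 library gave 1 to 9 of the set and 50 to 2355 of all genes. In glucose against control the set stayed at 0 throughout, and all genes went from 0 to 88 by DESeq2, 16 without a count filter, 36 with the replicate block and 20 without control 1m and salt 2m. In glucose against salt (7 and 1017), DESeq2 gave 14 and 2501, the replicate block 1857 of all genes, and leaving out 1 library 1 to 17 and 59 to 2343. The fold change in salt turned for acaca (-0.0992 to 1.0755 with 1 library left out, the lowest without salt 2m, -0.0021 without control 1m and salt 2m) and for dgat2 (-0.24 without both). The other fold changes recomputed here kept their sign. Of all recomputed fold changes, the replicate block changed only the calls of pparab and dgat2 and, in glucose against salt, acaca and pparab. With library size alone the median of all genes shifted by -0.0955 in salt against control, 0.0137 in glucose against control and 0.11 in glucose against salt. With fewer samples the spread is estimated from fewer degrees of freedom. In both comparisons with salt, leaving out 1 library raised the count of all genes called in some cases and lowered it in others. Why the counts changed was not tested. With 2 salt libraries, changes of low genes may have been missed, and how large a change could be detected at low levels was not tested.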
